A study of Mus musculus with 10 samples.

Results

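MicroRNA genes were followed through RNA that came down with Musashi1 and Musashi2 antibodies from mouse pituitary lysates, and through RNA from the same lysates that came down with control rabbit IgG. A microRNA gene locus was taken as a row of the count table annotated with the miRNA biotype, with a symbol starting with Mir and at least 50 raw counts summed over all 10 libraries. Of 1101 rows with that biotype and symbol, among 55416 genes, 211 reached 50 counts. Another 437 had 1 to 49 counts and 453 had none. The loci were thus chosen by their summed raw count, a value that does not use the contrast between antibodies. Just inside the limit stood Mir3086 and Mir224, with 50 counts each, and just outside it Mir3099, Mir28b and Mir1957a, with 49 each.

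Each lysate held 6 pooled pituitaries of adult sighted FVB control mice aged 8 to 10 weeks, and was divided into a Musashi IP, made with antibodies to Musashi1 and Musashi2 together (5 libraries), and an IgG control (5 libraries). Lysates 2, 5 and 6 were female and lysates 3 and 7 male. Because the antibodies were used together, RNA bound to Musashi1 and RNA bound to Musashi2 cannot be told apart. The immunoprecipitations were done on separate occasions, and values below are given in the order of lysates 2, 3, 5, 6 and 7.

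Most microRNAs are cut from a long primary transcript. Drosha and its partner Dgcr8 release a hairpin in the nucleus, Xpo5 exports it, Dicer1 cuts it to a short mature strand, and an Argonaute protein uses bases 2 to 8 of that strand, the seed, to find target mRNAs. Many microRNA hairpins lie in introns of other genes, called hosts, and share their transcription. Musashi proteins bind short motifs, mainly in the 3' untranslated regions of mRNAs, and regulate translation. Musashi1 has also been linked to the retention of let-7 family precursors through Lin28 in neural cells. The libraries here were total RNA libraries, not small RNA libraries, so a count at a locus of 51 to 139 nt is a read from RNA that covers the hairpin. Primary transcript, spliced-out intron, hairpin and unspliced host RNA cannot be told apart in these counts.

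The mature strands of the loci that the results turn on are shown with the seed in capitals, from RefSeq on GRCm38.p6. The miR-344 strands are shown because loci of this family include the largest difference between antibodies, and because Mir344, Mir344-2, Mir344b and Mir344c share the seed GUCAGGC.
miR-344-5p: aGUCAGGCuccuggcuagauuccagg
miR-344b-5p: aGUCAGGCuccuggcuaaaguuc
miR-344c-5p: aGUCAGGCugcuggcuagaguac
The miR-7 and let-7 strands are shown because both families are known from endocrine or neural tissue and no locus of either passed the test. The Mir7-1 and Mir7-2 loci give the same miR-7a-5p strand.
miR-7a-5p: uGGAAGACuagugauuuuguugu
miR-7b-5p: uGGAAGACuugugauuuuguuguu
let-7c-5p: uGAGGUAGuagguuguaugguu
miR-98-5p: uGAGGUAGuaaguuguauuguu
Single loci described in detail below gave the following strands, which share no seed with each other.
miR-341-3p: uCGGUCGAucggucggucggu
miR-1188-5p: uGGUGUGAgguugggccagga
miR-412-3p: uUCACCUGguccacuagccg
miR-335-5p: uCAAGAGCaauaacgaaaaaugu
miR-384-5p: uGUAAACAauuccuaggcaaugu
miR-148b-3p: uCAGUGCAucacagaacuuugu
miR-5618-5p: uACCCUUUacaccguguagu
miR-8091: aGGAGUGAgugguaagcuggug

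In all, 190 of the 211 loci matched a RefSeq mature strand, and 18 seeds were shared by at least 2 loci, over 35 loci. Shared seeds joined Mir132 and Mir212, Mir200a and Mir200b, Mir376b and Mir376c, and Mir30c-1 and Mir384, among others. The Musashi motif was searched as G or A, then 1 to 3 U, then AGU (GUAGU, for example), on the hairpin strand. It was found in 27 of 179 matched hairpins of these loci (15.1%) and in 139 of all 1005 RefSeq mouse hairpins (13.8%). In let-7c-5p, let-7g-5p and miR-98-5p, GUAGU begins at base 5 and so overlaps the seed. In miR-5618-5p it begins at base 16, outside the seed.

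The 211 loci together held 64325 counts, with a median of 128 each. Library totals were 10.4 ± 1.89 M counts in Musashi IP and 7.62 ± 1.08 M in IgG (SD, n = 5 each), so 1 count stood for 0.0768 CPM in the deepest library and 0.150 CPM in the shallowest. CPM are counts scaled to a common library size after TMM scaling. Of the endocrine markers, Lhb was listed at 0 counts in every library, and the other 6 were tested, with 1 higher in Musashi IP. Summed CPM of the 5 erythroid markers ran from 271 to 688 in Musashi IP and from 461 to 1248 in IgG, with 3 of 4 tested lower in Musashi IP. Immune markers were lower for 2 of 4, and endothelial markers for 0 of 5 by edgeR, at an adjusted or an unadjusted p under 0.05. The 4 posterior lobe markers summed to 1.96 to 7.27 CPM in Musashi IP and 1.39 to 6.04 CPM in IgG, and none was tested. The part of these markers in the results below was not tested.

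Position in other genes went with whether a row held counts. Of 564 Mir rows in an intron of a same-strand gene, 149 (26.4%) reached 50 counts, as did 60 of 332 rows outside any same-strand gene (18.1%). Of 205 rows that lay mostly in an exon of a host, 2 reached 50 counts (0.976%), and 190 had none. The 2 were Mir3072 in Mirg and Mir8094 in Ddx39b, both named after their values were seen. How the authors' counting treated reads shared by a microRNA and an exon of its host is not given in the sources used here. Of the 60 loci with no host, 20 lay opposite a gene on the other strand, Mir378b opposite Msi2 among them.

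The imprinted stretch between Dlk1 and Dio3, a region whose noncoding RNAs are made from the maternal chromosome, held 37 of the 211 loci (17.5%) and 57.1% of their counts. The first and last of these lie 176 kb apart. The maternally expressed noncoding RNA Rian hosted 3 of them and Mirg, the noncoding RNA at the end of the region, hosted 8. All 8 loci of highest mean CPM lay in the region, with Mir341 and Mir1188 in introns of Rian at the top. Per kb of locus, the region's median level was 87.7 CPM per kb in Musashi IP and 118 CPM per kb in IgG, and over the other 174 loci it was 12.8 CPM per kb in Musashi IP and 15.5 CPM per kb in IgG.

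**Figure D1:**
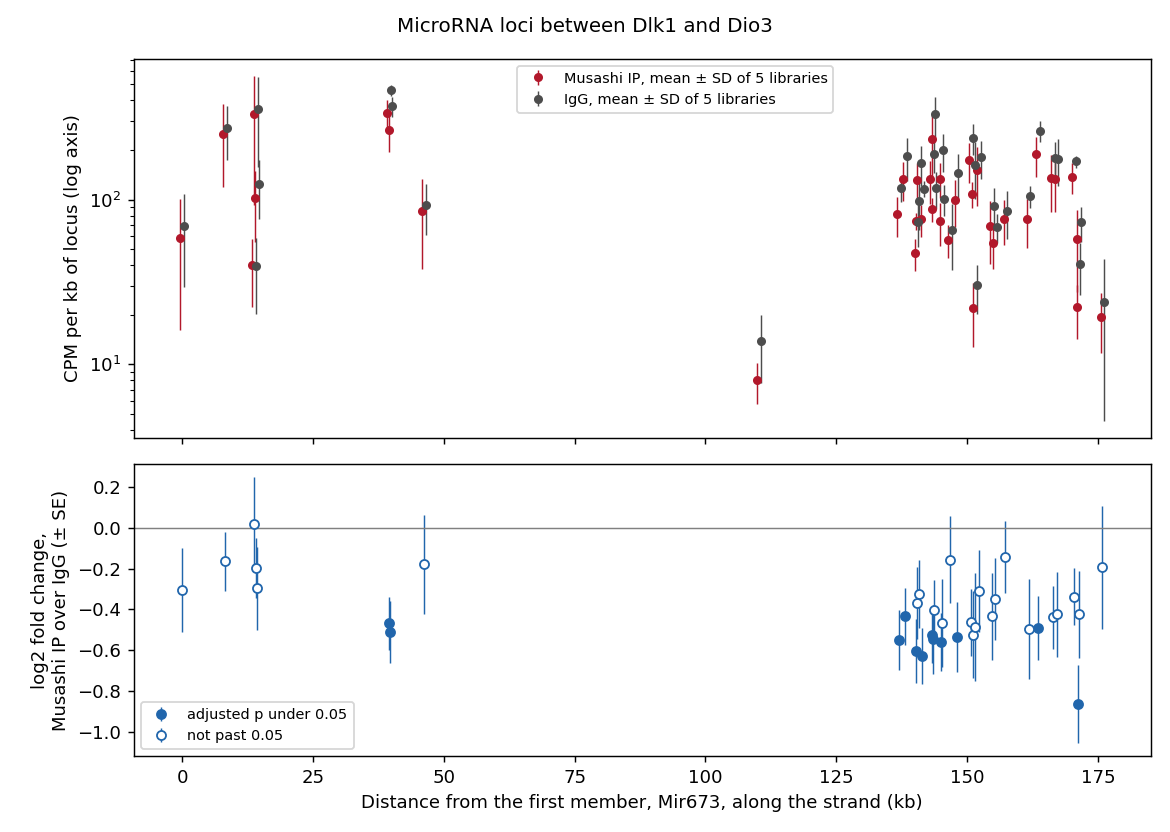
Upper panel, mean ± SD CPM per kb of each of the 37 loci between Dlk1 and Dio3 (log axis) in 5 Musashi IP libraries (red) and 5 IgG libraries (grey), against distance in kb from Mir673. Lower panel, log2 fold change of Musashi IP over IgG ± SE for the 36 loci tested, of which 35 lie below 0 and 12 pass an adjusted p of 0.05.

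MicroRNA loci held a smaller share of the reads in Musashi IP. The share of library counts in the 211 loci was 0.0717%, 0.0791%, 0.0652%, 0.0357% and 0.0540% in Musashi IP, against 0.0772%, 0.103%, 0.0951%, 0.0931% and 0.0778% in IgG. It was lower in Musashi IP in all 5 lysates, by the least in lysate 2 and by the most in lysate 6. The means were 0.0611 ± 0.0170% in Musashi IP and 0.0893 ± 0.0114% in IgG (SD, n = 5 each; exact sign-flip test, two-sided, p = 0.0625, the smallest that 5 pairs allow). The share is relative to all other RNA in the library, so less RNA from these loci and more RNA from other genes cannot be told apart. Both libraries of a lysate came from the same pooled pituitaries.

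Locus by locus, 127 of the 211 passed the filter on low counts and were tested, while 84 were not. By edgeR's quasi-likelihood test at an adjusted p of 0.05, 23 were lower in Musashi IP (18.1% of those tested) and 1 was higher (0.787%). Among all genes tested, 8.40% were lower and 18.5% higher. Of the 23, 12 were among the 36 tested between Dlk1 and Dio3, and 11 among the 91 tested elsewhere. Loci of the same host or cluster can share a transcript, so they are not separate observations, and these shares describe loci only. The median log2 fold change of the tested loci was -0.38 (all genes -0.07), and 90.6% of them lay below 0, against 55.8% of all genes. Of all 211 loci, tested or not, 178 had a lower mean CPM in Musashi IP than in IgG. Each of the 23 was lower in 5 of 5 lysates, with log2 fold changes of -1.35 to -0.43. The calls came from the same 5 pairs, so this agreement describes them and adds no further support. In 7 of the 127 loci tested (5.51%) no Musashi IP library reached the lowest IgG library, set beside 1.98% of all genes tested. Of the 7, 6 were among the lower loci: Mir341, Mir329, Mir344b, Mir344c, Mir344-2 and Mir5618.

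The count of lower loci depended on the model. It was 4 with no lysate block and 2 after a correction for gene length and GC content. That correction left a median log2 fold change of 0.0049 (all genes -0.13) and 63 of 127 loci below 0. Of the 320 tested genes no longer than the longest of these loci, 127 were the loci themselves, so that correction was fitted partly on them. After it the log2 fold changes of the 23 lower loci ran from -1.02 to 0.24 with a median of -0.23, and 21 of them shrank by over 1.5 times or changed sign. The other 2 were Mir344b and Mir412. Without lysate 5 the count was 6 and without lysate 7 it was 7. Mir344b stayed lower under all 12 alternatives tried, Mir344c and Mir344-2 under 11, and Mir329, Mir335 and Mir384 under 10. The other 17 kept the call under 3 to 9 of the 12.

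The Mir344 loci, a family of closely related hairpins on chromosome 7, included the largest log2 fold change. Mir344b had 0.956, 1.09, 0.972, 0.784 and 1.90 CPM in Musashi IP, against 2.46, 3.10, 2.72, 3.60 and 2.62 CPM in IgG. Its groups did not overlap, although the Musashi IP library of lysate 7 stood apart from the other 4. The log2 fold change was -1.35 ± 0.27 (SE; adjusted p = 0.0101), and it was -1.02 after the length and GC correction (adjusted p = 0.0168). Mir344c had 2.51, 4.56, 3.996, 4.02 and 4.65 CPM in Musashi IP, against 4.81, 7.28, 6.10, 6.38 and 9.70 CPM in IgG, which gave -0.79 ± 0.15 (SE; adjusted p = 0.00838). Mir344-2 had 11.1, 11.6, 11.2, 9.30 and 11.2 CPM in Musashi IP, against 14.6, 18.9, 13.4, 15.7 and 16.5 CPM in IgG, which gave -0.53 ± 0.12 (SE; adjusted p = 0.0164). For both the lowest IgG library lay above the highest Musashi IP library, and both lost the call under the length and GC correction only, at -0.48 for Mir344c and -0.23 for Mir344-2. Mir344 itself was at -0.39 ± 0.17 (SE; adjusted p = 0.111), and Mir344e and Mir344f were not tested.

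Inside the Dlk1 to Dio3 region, 12 of the 36 loci tested were lower in Musashi IP and 0 were higher by edgeR, with 17 at an unadjusted p under 0.05, and the median log2 fold change was -0.43. Leaving out lysate 6 gave a median of -0.25, and correcting for length and GC content gave -0.03 (all genes -0.13). Mir341 had 39.3, 35.4, 35.3, 23.0 and 28.8 CPM in Musashi IP, against 43.6, 43.4, 48.4, 45.7 and 39.9 CPM in IgG. Every IgG library lay above every Musashi IP library, and the log2 fold change was -0.47 ± 0.13 (SE; adjusted p = 0.0306) and -0.20 once corrected. Mir1188, in the same host, had 41.2, 37.3, 32.1, 20.96 and 26.0 CPM in Musashi IP, against 43.7, 48.8, 47.2, 47.3 and 33.7 CPM in IgG. Its groups overlapped at the IgG library of lysate 7, and the log2 fold change was -0.51 ± 0.15 (SE; adjusted p = 0.0376) and -0.24 once corrected.

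Of the 20 loci of the Mir379 cluster that lie before Mirg, 8 were lower: Mir379, Mir411, Mir1197, Mir329, Mir494, Mir679, Mir666 and Mir667. Mir329 had 8.13, 8.90, 8.10, 7.15 and 4.65 CPM in Musashi IP, against 12.2, 12.1, 10.9, 11.9 and 9.18 CPM in IgG, with no overlap, a log2 fold change of -0.63 ± 0.14 (SE) and an adjusted p of 0.0128. Mir679 had 24.4, 23.1, 18.6, 8.91 and 11.3 CPM in Musashi IP, against 32.4, 28.0, 23.9, 23.4 and 14.4 CPM in IgG (log2 fold change -0.55 ± 0.17, SE; adjusted p = 0.0436). Mir666 had 12.6, 15.5, 17.5, 10.4 and 10.4 CPM in Musashi IP, against 14.4, 21.6, 25.7, 22.3 and 14.4 CPM in IgG (-0.56 ± 0.14, SE; adjusted p = 0.0222). Both overlapped between antibodies and were lower in each lysate. Over the 7 loci other than Mir329 the log2 fold changes ran from -0.60 (Mir1197) to -0.43 (Mir411). After the length and GC correction Mir329 was at -0.18, Mir679 at -0.25, Mir666 at -0.28, Mir667 at -0.25, Mir1197 at -0.23, Mir379 at -0.07 and Mir411 at -0.06. Without lysate 6, Mir679 and Mir667 were both at -0.35 and Mir376c at -0.30. Mir376c, at -0.46, missed the threshold (adjusted p = 0.0643) and was higher in Musashi IP, at 0.56, after the length and GC correction (adjusted p = 0.0106), while Mir494 turned to 0.18.

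Of the 8 loci in Mirg, 2 were lower. Mir412 had 1.67, 2.39, 2.48, 0.979 and 1.38 CPM in Musashi IP, against 2.46, 4.04, 4.67, 1.97 and 3.02 CPM in IgG. The difference held in every lysate but the groups overlapped, and the log2 fold change of -0.86 ± 0.19 (SE; adjusted p = 0.0136) was -0.62 after the length and GC correction (adjusted p = 0.0403). Mir453 was at -0.49 ± 0.16 (SE; adjusted p = 0.0462), a call lost without any 1 of the 5 lysates, and -0.19 after that correction.

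At the other end of the region, none of the 5 loci of the Mir673 cluster was called in either direction by edgeR, and 0 had an unadjusted p under 0.05. Mir540 had 48.2, 23.3, 18.9, 10.3 and 9.31 CPM in Musashi IP, against 45.2, 25.3, 20.8, 18.4 and 9.57 CPM in IgG, so lysates differed more than antibodies did. Mir493 had 38.1, 23.9, 18.1, 12.1 and 11.8 CPM in Musashi IP, against 33.8, 25.9, 20.5, 20.5 and 11.7 CPM in IgG. Both were highest in lysate 2 and lowest in lysate 7 with either antibody. Their log2 fold changes, -0.20 for Mir540 and -0.16 for Mir493, turned to 0.06 and 0.10 after the length and GC correction, and were -0.04 and -0.02 without lysate 6.

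**Figure D2:**
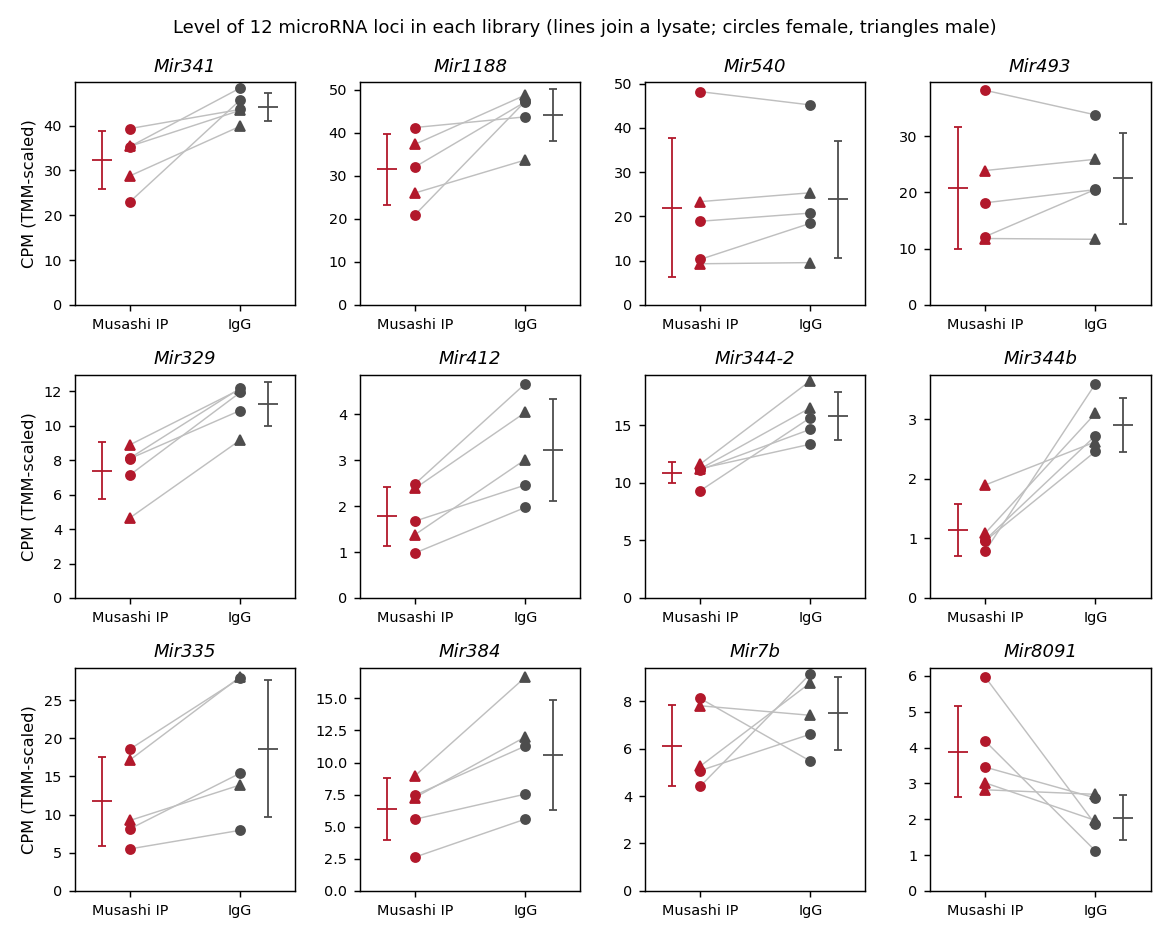
TMM-scaled CPM (y axis, from 0) of 12 microRNA loci in the 5 Musashi IP libraries (red, left) and the 5 IgG libraries (grey, right) of each panel, with lines joining a lysate, circles for female and triangles for male lysates, and bars for mean ± SD. Mir8091 lies higher in Musashi IP, Mir341, Mir329, Mir344-2 and Mir344b lie lower with no overlap, and Mir540, Mir493 and Mir7b overlap widely.

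Outside the region, 11 of 91 loci tested were lower and 1 was higher. Mir335, which lies in an intron of the imprinted gene Mest, had 5.50, 9.23, 18.6, 8.13 and 17.2 CPM in Musashi IP, against 7.94, 13.9, 27.9, 15.4 and 28.1 CPM in IgG. Lysates differed widely, so the groups overlapped, but the locus was lower in each lysate, and the adjusted p of 0.00584 was the smallest of all loci (log2 fold change -0.67 ± 0.12, SE). After the length and GC correction it was at -0.24. Mir384, a locus on the X chromosome with no host, had 2.63, 7.27, 7.45, 5.58 and 8.96 CPM in Musashi IP, against 5.59, 11.996, 11.3, 7.54 and 16.7 CPM in IgG. It was lower in each lysate (-0.73 ± 0.14, SE; adjusted p = 0.00875) and had a corrected value, for length and GC content, of 0.09.

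Other lower loci sat in introns of protein-coding genes. Mir5618 in Tmem123, which encodes a membrane protein, was at -0.94 ± 0.23 (SE; adjusted p = 0.0195), a call lost under 4 of the 12 alternatives (-0.55 after the length and GC correction), and Mir691 in the axon guidance receptor gene Robo2 at -0.91 ± 0.26 (SE; adjusted p = 0.0330). Mir691 had 0.598, 1.85, 2.7, 0.784 and 2.76 CPM in Musashi IP, against 2.01, 3.50, 4.28, 2.55 and 3.28 CPM in IgG, and its libraries overlapped between antibodies. After the correction it was at -0.06. Mir6336 in the lipoprotein receptor gene Lrp1b was at -0.83 (-0.020 after the correction), Mir1955 in the chromatin reader gene Phf21a at -0.58 (-0.12 after it), and Mir186 in the splicing factor gene Zranb2 at -0.57 (0.24 after the length and GC correction). Mir325, in the noncoding RNA 5330434G04Rik, was at -0.68 (-0.26 after the correction).

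Loci were also grouped by strand and by chromosome. Of the 60 loci with no host, the 11 tested that lie opposite a gene on the other strand had 0 called by edgeR and 2 at an unadjusted p under 0.05, while of the 33 tested with no gene opposite 9 were lower and 1 was higher. Of those 9, 8 were the neighbouring loci of the Mir379 cluster named above, and the other was Mir384. The groups thus differ in more than strand, and the difference between them was not tested. Of all genes, 8.40% were lower and 18.5% higher. Mir378b, opposite the Musashi2 gene Msi2, had 10.5, 8.58, 9.83, 7.84 and 6.29 CPM in Musashi IP, against 10.4, 14.3, 9.47, 7.42 and 9.18 CPM in IgG. Its libraries overlapped widely, and the log2 fold change was -0.23 ± 0.17 (SE; adjusted p = 0.318) and 0.04 after the length and GC correction. Of 10 loci on the X chromosome 7 were tested, and 2 of them, Mir384 and Mir325, were lower, beside 8.40% of all genes.

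The single higher locus was Mir8091, which has no host. It had 4.18, 2.82, 3.46, 5.97 and 3.02 CPM in Musashi IP, against 1.12, 2.696, 2.59, 1.86 and 1.97 CPM in IgG. Every Musashi IP library lay above every IgG library, a pattern of 9.70% of all genes tested, although lysate 3 differed by little. The log2 fold change was 0.92 ± 0.29 (SE; adjusted p = 0.0464), and it missed the threshold under 7 of 12 alternatives. The next largest positive values did not pass the test: Mir6353 at 0.30 (0.16 without lysate 7), Mir5128 at 0.25 (0.011 without lysate 7), Mir199a-1 at 0.18 (-0.02 without lysate 5) and Mir721 at 0.12 (-0.05 by library totals).

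Several microRNAs are known from endocrine and neural cells. The miR-7 loci, whose mature strand is abundant in neuroendocrine cells, were at -0.65 ± 0.27 for Mir7-1 (-0.19 after the length and GC correction), -0.31 ± 0.23 for Mir7b (0.04 after it) and -0.17 ± 0.22 for Mir7-2 (0.13 after it; SE). None passed the threshold of edgeR, and 1 had an unadjusted p under 0.05. Mir7b had 8.13, 7.82, 5.08, 4.41 and 5.26 CPM in Musashi IP, against 5.48, 7.41, 6.61, 9.16 and 8.78 CPM in IgG. It was higher in Musashi IP in lysates 2 and 3 and lower in the other 3. Without lysate 6, Mir7b was at -0.12 and Mir7-2 at 0.0034.

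The let-7 and miR-98 loci, from the family whose precursors Lin28 retains, were at -0.85 ± 0.45 for Mirlet7c-1, -0.63 ± 0.29 for Mir98 and -0.47 ± 0.39 for Mirlet7g (SE), with 0 called by edgeR and 0 at an unadjusted p under 0.05. Mirlet7c-1 had 1.55, 2.50, 1.62, 0 and 2.41 CPM in Musashi IP, against 2.35, 3.77, 1.69, 2.20 and 3.67 CPM in IgG. The 0 in lysate 6 was the widest gap, and the other Musashi IP libraries lay within the IgG range or just under it, and without that lysate the log2 fold change was -0.49. Mirlet7g was at -0.14 without lysate 5, and Mir98 was at -0.24 after the length and GC correction. Mir99a, in the same host Mir99ahg as Mirlet7c-1, was at -0.86 ± 0.39 (SE; adjusted p = 0.129) and at -0.504 without lysate 5.

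Mir375, a microRNA of islet and other endocrine cells, was at -0.55 ± 0.34 (SE; adjusted p = 0.241), and at -0.19 without lysate 5. Mir200a and Mir200b, whose family keeps the epithelial state and is needed for ovulation in mice, were both at -0.21, at 0.09 and 0.07 after the length and GC correction, and at -0.05 and 0.13 without lysate 6. Mir212 and Mir132, a pair induced by CREB in neurons, were not tested. Mir132 averaged 1.08 ± 0.539 CPM in Musashi IP and 0.701 ± 0.217 CPM in IgG, and Mir212 averaged 1.34 ± 0.986 CPM in Musashi IP and 1.41 ± 1.19 CPM in IgG (SD, n = 5 each).

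In all, 6 of 22 matched hairpins of lower loci held the Musashi motif (27.3%), as did 11 of 88 hairpins of loci tested and not called (12.5%), set beside 13.8% of all hairpins. The 6 were those of Mir6336, Mir1955, Mir5618, Mir411, Mir453 and Mir325. Each of the 6 lost its call under the length and GC correction, and they kept it under 3 to 8 of the 12 alternatives. Median hairpin length was 86.5 nt for lower loci, 83 nt for those not called and 79 nt for all hairpins. The difference in share was not tested. This is a description of letters in hairpins and not of binding.

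Host genes were set beside the loci because an intronic locus is often read from the transcript of its host. The 151 hosted loci lay in 133 host genes, 119 protein-coding and 14 long noncoding, and all 133 were tested. In Musashi IP, 30 hosts were higher (22.6%) and 17 lower (12.8%), beside 18.5% higher and 8.40% lower among all genes tested. Without lysate 5 these counts were 13 and 1, without lysate 7 they were 19 and 7, and without lysate 2 the lower count was 10. The lower count was 34 by library totals, 31 after the length and GC correction and 1 with no lysate block. All 30 higher hosts were protein-coding, and 9 of the 14 long noncoding hosts were lower, with 0 higher by edgeR, at an adjusted or an unadjusted p under 0.05. Of the 83 hosted loci tested, 14 were lower and 0 higher.

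**Figure D3:**
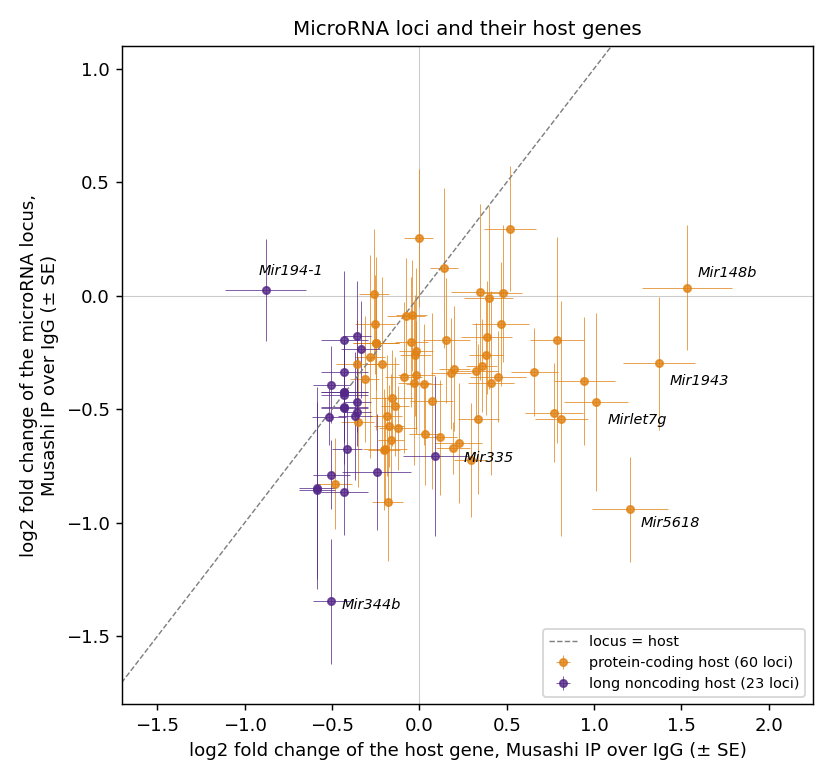
Log2 fold change of Musashi IP over IgG for 83 hosted microRNA loci (y axis) against that of the host gene (x axis), each ± SE, with 60 loci in protein-coding hosts (orange) and 23 in long noncoding hosts (purple). Loci in long noncoding hosts scatter about the dashed line of equal change, while Mir148b, Mir1943, Mir5618 and Mirlet7g lie far under it, at host values above 1.

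The difference between locus and host was taken in each lysate as the log2 ratio of the locus minus that of the host. It was not corrected for length or GC content, although hairpins are far shorter than their hosts. Over 121 pairs with a protein-coding host its median was -0.39, and 30 pairs were lower in all 5 lysates with 0 higher in all 5. Without lysate 2, 49 of all 151 pairs were lower in each lysate left, a count that cannot fall when a lysate is left out. Over 30 pairs with a long noncoding host the median was -0.07, with 0 lower and 1 higher in all 5. That 1 was Mir194-1 in 2010103J01Rik, named after its values were seen. With 5 lysates an exact sign-flip test cannot go below p = 0.0625, and the smallest adjusted p over the 151 pairs was 0.304. Over the 30 pairs whose host was higher in Musashi IP the mean difference was below 0 in each, with a median of -1.03. Of them, 17 were lower in all 5 lysates, and a higher host lowers that difference by construction. Over the 90 pairs whose host was not called the median was -0.31, with 12 lower and 0 higher in all 5. The tested loci themselves had a median log2 fold change of -0.35 in protein-coding hosts and -0.50 in long noncoding hosts.

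Mir148b lies in Copz1, a gene of the COPI vesicle coat. Copz1 had 129, 71.6, 161, 292 and 95.5 CPM in Musashi IP, against 68.0, 40.7, 45.7, 44.2 and 36.2 CPM in IgG, with no overlap and a log2 fold change of 1.53 ± 0.26 (SE; adjusted p = 0.00527). Mir148b had 1.43, 1.74, 1.19, 1.37 and 1.72 CPM in Musashi IP, against 0.783, 1.21, 1.17, 2.09 and 2.098 CPM in IgG, at 0.03 ± 0.28 (SE; adjusted p = 0.934) and at -0.14 by library totals. Locus minus host was -0.20, -0.36, -1.79, -3.25 and -1.65, negative in each lysate but small in lysates 2 and 3.

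Mir5618 and its host Tmem123 passed the test in opposite directions. Tmem123 had 41.6, 58.0, 85.5, 125 and 87.6 CPM in Musashi IP, against 29.5, 30.6, 29.8, 28.2 and 46.0 CPM in IgG (log2 fold change 1.204 ± 0.22, SE; adjusted p = 0.00658). Mir5618 had 1.196, 1.52, 0.648, 0.979 and 1.03 CPM in Musashi IP, against 2.35, 2.29, 1.82, 1.74 and 2.098 CPM in IgG. The locus did not overlap between antibodies, and the host overlapped only at the Musashi IP library of lysate 2. Per kb of sequence, the locus stood at 0.823 of the host's exons in Musashi IP and at 3.82 times them in IgG. Here the host length is that of all its annotated exons, used or not, and the locus length is that of the hairpin alone. The level of this ratio is therefore not a measure of intron against exon RNA. Locus minus host averaged -2.04 ± 0.71 (SD, n = 5).

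The other 6 pairs of largest difference had hosts higher in Musashi IP and loci of low count. Mir5123 in the galactosyltransferase gene B4galt1 averaged -2.52 ± 1.37 for locus minus host (SD, n = 5), Mir6993 in the fatty acid desaturase gene Fads1 -2.02, and Mir340 in the ubiquitin ligase gene Rnf130 -1.73. Mir6541 in Wdfy2 averaged -1.72, Mir1943 in Tmem184b -1.64, and Mirlet7g in Wdr82, a subunit of histone methyltransferase complexes, -1.43. Of these 6 loci, Mir1943 and Mirlet7g were tested, and neither was called, at -0.30 for Mir1943 (-0.11 without lysate 5) and -0.47 for Mirlet7g.

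Mir335 and Mest differed in a way that did not rest on a called host. Mest had 244, 274, 450, 428 and 412 CPM in Musashi IP, against 227, 257, 424, 290 and 379 CPM in IgG (log2 fold change 0.19 ± 0.10, SE; adjusted p = 0.164), and was at -0.02 after the length and GC correction. Locus minus host was -0.62, -0.67, -0.67, -1.46 and -0.82. Lysate 6 stood lowest and the other 4 were alike. These differences carry no length and GC correction, and Mir335 itself moved toward 0 under it, as given above. How much of the gap would remain was not tested.

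The noncoding hosts of called loci were themselves lower in Musashi IP. Rian had a log2 fold change of -0.36 ± 0.08 (SE; adjusted p = 0.0133; -0.07 after the length and GC correction), and locus minus host averaged -0.11 ± 0.19 for Mir341 and -0.15 ± 0.29 for Mir1188 (SD, n = 5). Mirg was at -0.43 ± 0.13 (SE; adjusted p = 0.0426), at -0.71 after that correction and at -0.28 without lysate 6, with -0.06 ± 0.13 for Mir453 and -0.36 ± 0.30 for Mir412 (SD, n = 5). A230057D06Rik, which hosts Mir344b and Mir344c, was at -0.51 ± 0.11 (-0.33 after it), and A330076H08Rik, which hosts Mir344-2, at -0.52 ± 0.10 (SE). Mir344b was lower than its host in 4 of 5 lysates, with -0.96, -0.98, -0.76, -1.05 and 0.10.

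**Figure D4:**
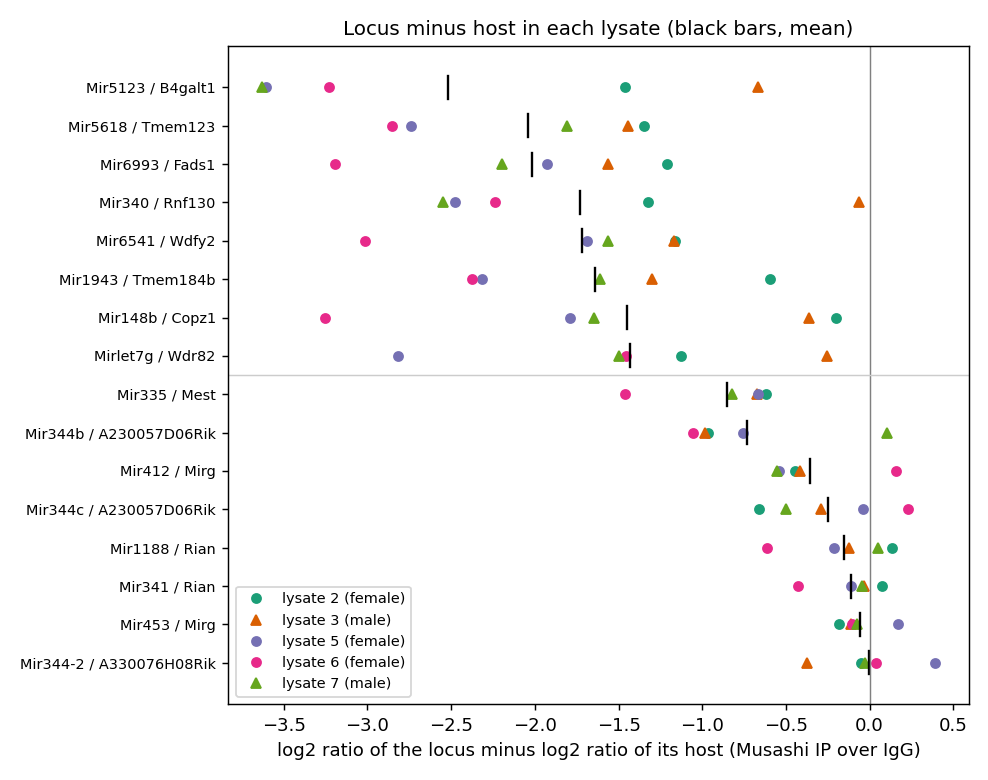
Log2 ratio (Musashi IP over IgG) of a locus minus that of its host (x axis) in each of 5 lysates, for the 8 pairs of largest difference with one sign in all lysates (upper rows) and 8 loci named for their own change (lower rows), with black bars for the mean. All points of the upper 8 pairs and of Mir335 lie below 0, and means of the pairs in Rian and Mirg lie between -0.36 and -0.06.

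Per kb of sequence, the median hosted locus stood at 1.08 times its host's exons in Musashi IP and at 1.37 times them in IgG. The lengths were those of the hairpin and of all annotated exons of the host, so a ratio above 1 does not show more intron than exon RNA. With long noncoding hosts the medians were 1.69 in Musashi IP and 1.65 in IgG, and with hosts higher in Musashi IP they were 0.677 in Musashi IP and 1.41 in IgG.

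Lysate 6 carried the widest gap between antibodies. The median log2 ratio of the tested loci was -0.08, -0.30, -0.34, -0.87 and -0.32 over lysates 2, 3, 5, 6 and 7. Without lysate 6, 113 of 135 loci tested were still below 0, and without lysate 2 it was 112 of 122. Over all genes tested, the paired libraries of lysate 6 also correlated least in their deviations from group means, at 0.186. Whether the wide gap of lysate 6 is particular to microRNA loci was not tested.

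Genes whose products make and use microRNAs were called at shares near those of all genes. Of 25 listed, 24 were tested, and 6 were higher (25%) and 3 lower (12.5%) in Musashi IP, beside 18.5% higher and 8.40% lower among all genes, so the counts show nothing particular to the list. Its median log2 fold change was 0.0058, against -0.07 for all genes. The higher ones included Ran, the GTPase that works with Xpo5 (1.502 ± 0.26), the Argonautes Ago1 (0.90 ± 0.15) and Ago2 (0.66 ± 0.12), and Khsrp, which binds the loop of let-7 precursors (0.65 ± 0.12; SE). The lower ones were Dis3l2, which degrades tailed let-7 precursors (-0.48 ± 0.11), the helicase Ddx5 of the Drosha complex (-0.34 ± 0.09) and Tut4, which adds those tails (-0.29 ± 0.09; SE). Drosha was at -0.10, Dgcr8 at -0.03 and Dicer1 at 0.03, none past the threshold. Ago2 had 386, 363, 471, 703 and 450 CPM in Musashi IP, against 286, 267, 302, 317 and 292 CPM in IgG, with no overlap.

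Sex was the other variable of the design. The antibody effect was called different between female and male lysates for none of 127 loci tested (edgeR interaction, 0 at an adjusted p of 0.05 and 2 at an unadjusted p under 0.05), and 0% of all genes were called. The 3 of smallest unadjusted p were Mir378b, Mir6402 and Mir466q. Between female and male Musashi IP libraries, 0 of 138 loci were called by edgeR, with 3 at an unadjusted p under 0.05, against 2.84% of all genes called. Those 3 were Mir1927, Mir6947 and Mir466q.

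Between female and male IgG libraries, 1 of 140 loci was called, with 12 at an unadjusted p under 0.05, against 4.50% of all genes called. It was Mir296, with 0, 0.259 and 0 CPM in the female IgG libraries of lysates 2, 5 and 6, against 1.35 and 1.44 CPM in the male ones of lysates 3 and 7 (adjusted p = 0.0336). The female and male libraries did not overlap, but the female ones held 2 counts in all and the male ones 21. The rate ratio of female over male was 0.0567 (95% interval 0.00644 to 0.232, counting error only). In Musashi IP, Mir296 had 0.478, 0.432 and 0.294 CPM in female libraries, against 0.651 and 1.38 CPM in male ones, a rate ratio of 0.374 (0.164 to 0.805). The IgG call was lost without lysate 3 or lysate 7, and without lysate 5 there were 2 called loci.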

How the data were processed

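RNA from Musashi IP and IgG immunoprecipitates of 5 divided lysates was sequenced as stranded total RNA libraries, per the labels. The authors deposited raw counts for each Ensembl gene, not normalized. The submitters' processing notes list FastQC 0.11.8, Trimmomatic 0.39, STAR 2.7.1a and the build GRCm39. Which program counted the reads, with which strand setting, and how it treated reads shared by genes or by copies of a gene, is not given in the sources used here, so closely related loci such as the Mir344 and let-7 families are uncertain.

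Biotypes, hosts and lengths came from GENCODE M21 on GRCm38 (94.1% of gene IDs matched). Since the counts used a later build, coordinates are left out. A host is a same-strand gene that spans the locus.

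Tests ran on the counts in R 4.3.3 with edgeR 4.0.16 (filterByExpr, TMM, quasi-likelihood test, 20550 genes, Benjamini-Hochberg at 0.05), with a block term for the lysate that left 4 residual degrees of freedom. Single-lysate log2 ratios used a prior count of 2. Libraries of a lysate are pairs, as the protocol describes dividing it, and deviations of paired libraries from their group means correlated at 0.523, 0.679, 0.602, 0.186 and 0.778. P-values of the antibody effect measure the spread, over lysates, of the difference between antibodies. Those between sexes within an antibody measure the spread between lysates. Each lysate is a pool of 6 pituitaries. Alternatives used library totals, DESeq2 1.42.0, limma 3.58.1 (voom), no filter, no block, a length and GC correction, and each lysate left out.

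The loci and gene lists were chosen with earlier results of these data known. Named were all called loci, the 8 of highest CPM, the 5 of largest change each way, the let-7, miR-7, miR-200, miR-132/212, miR-375, miR-335 and miR-384 loci, the 8 locus and host pairs of largest difference with one sign, those of smallest p between sexes, and up to 4 genes each way of the microRNA biogenesis list. Mir344, Mir344e and Mir344f were added after their values were seen.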

Additional observations from a re-analysis of the deposited data

Results flagged for a closer look

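In 114 groups of 5 libraries, 6 held a library far from the other 4, by a gap of more than 0.71 of the whole range. The groups were those of the named loci and of the shares of counts in all loci and in Dlk1 to Dio3 loci. Chance marks about 1 in 20 such groups. Mir344b had 1.90 CPM in Musashi IP of lysate 7, where the other 4 Musashi IP libraries ran from 0.784 to 1.09 CPM. Mir344-2 had 9.30 CPM in Musashi IP of lysate 6, where the others ran from 11.1 to 11.6 CPM. The other 4 were IgG libraries. Mir411 had 7.34 CPM in IgG of lysate 7 (others 15.8 to 18.7), Mir375 had 3.50 CPM in lysate 5 (others 0.928 to 1.45), Mir5128 had 2.43 CPM in lysate 3 (others 1.04 to 1.31) and Mir340 had 0.404 CPM in lysate 3 (others 0.928 to 1.05).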

How the results depend on the processing

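Without the replicate block, 4 loci were lower, 0 higher and 1 host lower in Musashi IP. With the length and GC correction and the replicate block, 2 loci were lower, 3 higher and 31 hosts lower. The median was then 0.0049 over all loci tested, -0.027 over Dlk1 to Dio3 loci and -0.13 over all genes. By library totals, which moved the median of all genes by -0.18, 0 loci were higher and 34 hosts lower, and DESeq2's size factors gave 0 loci higher. Leaving out 1 lysate at a time gave 6 to 19 loci lower, 0 to 1 higher, 13 to 39 hosts higher and 1 to 19 hosts lower. It also gave 33 to 49 pairs with the locus below its host in every lysate, 1 to 4 with it above, and 0 to 2 loci called between sexes in IgG. The 2 counts of pairs cannot fall when a lysate is left out. Under the length and GC correction these log2 fold changes changed sign: Mir378b 0.038, Mir493 0.10, Mir540 0.056, Mir494 0.18, Mir376c 0.56, Mir7b 0.039, Mir466q 0.10, Mir186 0.24, Mir6402 0.0050, Mir200a 0.085, Mir200b 0.067, Mir7-2 0.13, Mir384 0.089, Rabgap1l 0.068, Strbp 0.069 and Mest -0.025. So did Mir148b (-0.14), Mir721 (-0.055) and Cux1 (-0.034) by library totals, and Strbp (0.0068) with no filter. With 1 lysate left out, log2 fold changes near 0 crossed it: -0.17 to 0.22 for Mir148b, -0.49 to 0.13 for Mir200b, -0.17 to 0.48 for Mir721, -0.26 to 0.0034 for Mir7-2, -0.023 to 0.30 for Mir199a-1, -0.081 to 0.040 for Strbp and -0.10 to 0.020 for Tnik. The cause was not tested. With no filter on low counts all 211 loci were tested, with 174 below 0, 23 lower and 1 higher.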
